A study of Mus musculus with 8 samples.

Results

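The lysosomal module comprised 32 mouse genes and was described in jejunal mucosa of Adipoq-F2-KO mice and their floxed controls. It was drawn up by name and consisted of Neu1 and its 2 complex partners, 11 other glycosidases and glycosaminoglycan enzymes, 6 lipid enzymes and lipid transfer proteins, 5 proteases, and 7 genes of membrane proteins, the proton pump and the transcription factor TFEB. All 32 were found by symbol among the 56980 gene identifiers of the count files. Neu1 was chosen by its higher counts in the knockout in these same libraries, so its genotype difference is given as a description without a test. The other 31 genes are read from the same genotype comparison.

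Lysosomes are acid compartments in which hydrolases take apart glycans, lipids and proteins brought in by endocytosis and autophagy. A proton pump in the limiting membrane keeps the lumen acid, and LAMP proteins coat that membrane. Neu1 encodes the lysosomal sialidase, which takes sialic acid off glycoproteins and glycolipids, and it works in a complex with protective protein/cathepsin A (Ctsa) and beta-galactosidase (Glb1). TFEB and its relatives are transcription factors that bind CACGTG-type E-boxes in the promoters of many lysosomal genes.

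RNA came from scrapings of the jejunal lining, a mix of cell types, from 4 FFA2 fl/fl control mice and 4 Adipoq-F2-KO littermates, all male. Both genotypes carried floxed alleles of FFA2 (gene Ffar2, a receptor for short-chain fatty acids), and the knockouts also carried Adiponectin-Cre, which is active in adipocytes. All mice ate a Western diet with 10% fructooligosaccharides (FOS) for 2 weeks from 12 weeks of age, in thermoneutral housing. The gut epithelium was not the targeted tissue, and Ffar2 was near the floor in both genotypes (7.36 ± 2.31 normalized counts in controls and 8.84 ± 2.85 in knockouts, SD, n = 4 each), so it does not check the genotype here. Normalized counts are read counts divided by the library's DESeq2 size factor.

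Libraries held 6007654 to 21712776 counts, and 3 of them (control 3 and knockouts 3 and 4) were below 10000000. The same 3 libraries had summed normalized counts of 6 adipocyte genes of 205 to 579, against 10.1 to 19.0 in the other 5. Villus enterocyte genes fitted the labelled tissue, with Apob, which packages dietary fat, at 231200 normalized counts or more in controls and at 229600 or more in knockouts. In bulk tissue fewer cells of a type and less RNA per cell cannot be told apart. The 32 members together took 0.222 to 0.265% of the counts of a library, and their summed normalized counts were 27910 to 30580 in controls and 28540 to 29800 in knockouts.

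Neu1 (ENSMUSG00000007038) lies on the plus strand at chr17:34931253-34935953 in GRCm38, and no other annotated gene overlaps it. Its 250 bases before the RefSeq start (GRCm38.p6) are shown because this is the promoter of the gene on which the module was chosen. Capitals mark CACGT, the nearest match to an E-box of the CACGTG type, which begins 54 bases before the start.
Neu1 promoter, chr17:34931003-34931252, plus strand: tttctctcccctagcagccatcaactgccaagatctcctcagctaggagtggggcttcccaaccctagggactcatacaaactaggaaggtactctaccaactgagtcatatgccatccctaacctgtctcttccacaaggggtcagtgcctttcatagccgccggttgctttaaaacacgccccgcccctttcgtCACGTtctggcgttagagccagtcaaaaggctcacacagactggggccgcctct
The stretch was 54.4% G and C. It lacks the full CACGTG, and the wider 300-base window with 50 bases past the start lacks it too. CACGT on either strand was in 19.6% of 32851 mouse promoter windows of that length.

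Neu1 was at 433, 373, 408 and 386 normalized counts in the 4 controls. It was at 561, 595, 495 and 664 in the 4 knockouts. The lowest knockout stood above the highest control. The means were 399.9 ± 26.0 and 579 ± 70.4 (SD, n = 4 each), a 1.45-fold difference and a log2 fold change of 0.54 (SE 0.12, 95% interval 0.29 to 0.78). These values chose the gene, and no member had a larger log2 fold change in either direction. The next highest increase was that of Smpd1 at 0.34.

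Ctsa, the protective protein that Neu1 needs for stability and activity, was not higher in the knockouts. It was at 1773, 1581, 1359 and 1486 normalized counts in controls and at 1332, 1240, 1496 and 1355 in knockouts. The genotypes overlapped, with 3 of the knockouts below every control. The log2 fold change was -0.20 (95% interval -0.42 to 0.02, DESeq2 unadjusted p = 0.081, BH-adjusted p = 0.9998). The 5 libraries above 10000000 counts were controls 1, 2 and 4 and knockouts 1 and 2. In these libraries the log2 fold change of Ctsa was -0.33 (DESeq2 unadjusted p = 0.0124, BH-adjusted p = 0.3986). It was -0.25 both without control 3 and without knockout 3, and in both the DESeq2 unadjusted p was below 0.05, with BH-adjusted p of 0.4824 or more. Ctsa shares exon sequence with Pltp and Neurl2 on the opposite strand, which held 154 and 26 reads over the 8 libraries, against 13650 for Ctsa.

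Glb1, which removes terminal galactose from glycans, was at 307, 267, 230 and 276 normalized counts in controls and at 227, 263, 254 and 282 in knockouts. The 2 ranges lay on top of each other, with a log2 fold change of -0.09 (95% interval -0.37 to 0.18). Glb1 shares 165 bases of exon with Tmppe on the same strand. The ratio of the Neu1 count to the Ctsa count was 24.4, 23.6, 30.0 and 26.0% in the 4 controls. It was 42.2, 48.0, 33.1 and 49.0% in the 4 knockouts (means 26.0 ± 2.85% and 43.0 ± 7.30%). The ratio of Neu1 to Glb1 counts ran from 1.40 to 1.77 in controls and from 1.95 to 2.47 in knockouts. Neither ratio was tested, since Neu1 enters both.

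**Figure D1:**
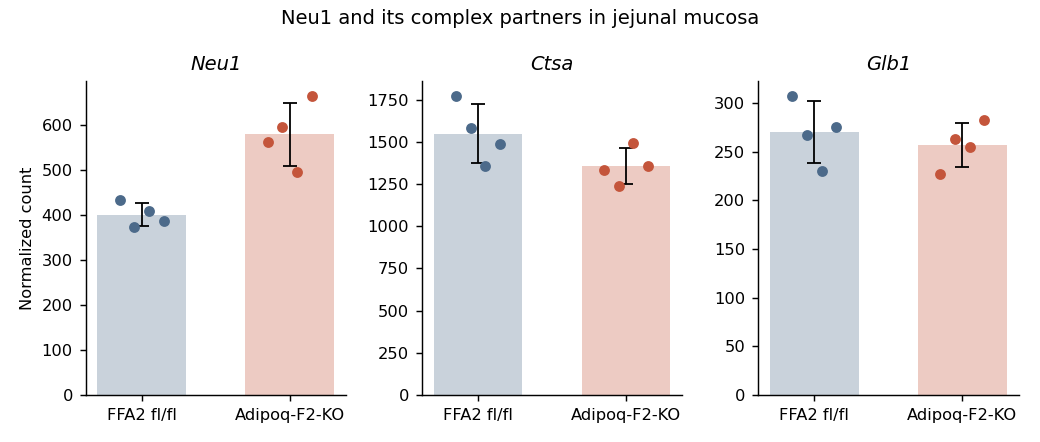
Normalized counts of Neu1, Ctsa and Glb1 in each of 4 FFA2 fl/fl and 4 Adipoq-F2-KO libraries (points), with means (bars) and SD (whiskers). Neu1 was 373 to 433 in controls and 495 to 664 in knockouts, while the ranges of Ctsa and Glb1 overlapped between genotypes.

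Slc44a4 and Ehmt2, the nearest genes upstream of Neu1, were level between genotypes. Slc44a4, a choline transporter family gene that ends 816 bases upstream on the same strand, was at 1358 ± 195 normalized counts in controls and 1376 ± 179 in knockouts (SD, n = 4 each), a log2 fold change of 0.03. Ehmt2, a histone methyltransferase gene, was at 0.05. Further upstream, Zbtb12 had a log2 fold change of 0.61 with an SE of 0.43 at a mean of only 19.8 normalized counts. Downstream, the heat shock genes Hspa1b and Hspa1a had log2 fold changes of -0.96 (SE 0.59) and -0.84 (SE 0.80), and Gm20481 had no read in any library. None of the 5 tested neighbours had an unadjusted DESeq2 p below 0.05.

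**Figure D2:**
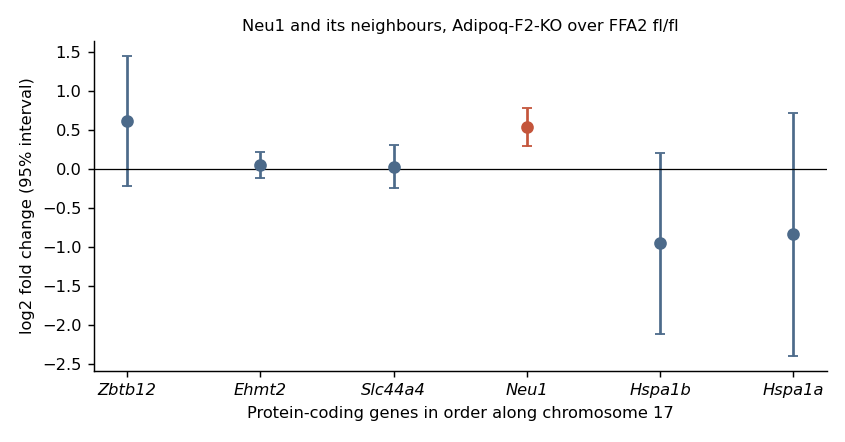
DESeq2 log2 fold changes of Neu1 and its 5 tested protein-coding neighbours in their order along chromosome 17 (points, spacing not to scale), with 95% intervals (bars). Slc44a4 and Ehmt2 lay at 0.03 and 0.05 beside Neu1 at 0.54, and the other 3 had wide intervals that crossed 0.

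The E-boxes that TFEB-type factors bind were common in the promoters of the other members. A RefSeq window of 300 bases (250 before to 50 after the start) was found for 27 of the 32 genes. The motif CACGTG, which reads the same on both strands, was in the windows of 11 of the 27 members (40.7%), against 7.15% of all 32851 windows and 8.09% of all genes. TCACGTG on either strand, which contains CACGTG, was in 10 members (37.0%, against 4.29% of genes), and TCACGTGA in 5 (18.5%, against 1.13%). The stretches shown are from the complex partners of Neu1, from Lamp1 with the most copies, from Gla, alpha-galactosidase A, with a pair of copies, and from Naglu, which is described among the glycosidases. Capitals mark each CACGTG, and all lie before the RefSeq start in GRCm38.p6.
Ctsa, chr2:164833749-164833772, plus strand: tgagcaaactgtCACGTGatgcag
Glb1, chr9:114401018-114401047, plus strand: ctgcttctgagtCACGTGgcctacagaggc
Lamp1, chr8:13159088-13159160, plus strand: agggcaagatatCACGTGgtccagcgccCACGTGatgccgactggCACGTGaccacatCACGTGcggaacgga
Gla, chrX:134601182-134601244, minus strand: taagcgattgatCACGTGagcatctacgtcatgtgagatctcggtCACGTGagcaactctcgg
Naglu, chr11:101070009-101070038, plus strand: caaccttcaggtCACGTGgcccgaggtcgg
Lamp1 held 4 copies between 61 and 15 bases before its start, and Gla held 2, at 227 and 194 bases. The single copy began 12 bases before the start in Ctsa, 48 in Glb1 and 73 in Naglu. Of the 10 members with TCACGTG, 1 had a positive and 9 a negative log2 fold change, with a median of -0.07 and a range of -0.43 to 0.05. Of the 16 members whose window lacked it, Neu1 left out, 9 were positive and 7 negative, with a median of 0.03. Across all genes, 711 tested genes with TCACGTG had a median of 0.01, with 374 positive and 337 negative. This split was made after the values were known and was not tested.

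Tfeb itself (chr17:47737030-47792419, plus strand) was at 211, 226, 180 and 185 normalized counts in controls and at 211, 224, 260 and 179 in knockouts. Knockout 3 was the highest of the 8 and knockout 4 the lowest. The log2 fold change was 0.11 (SE 0.16, 95% interval -0.20 to 0.42).

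Among the 11 other glycosidases and glycosaminoglycan enzymes, 2 had positive and 9 negative log2 fold changes, with a median of -0.07. Naglu (chr11:101070012-101077672, plus strand), which removes N-acetylglucosamine during heparan sulfate breakdown, was at 148, 117, 123 and 96.7 normalized counts in controls. In knockouts it was at 97.9, 93.0, 64.1 and 102. The genotypes overlapped through control 4, which lay within the knockout range. The log2 fold change was -0.43 (SE 0.22), with a DESeq2 unadjusted p of 0.0458 and a BH-adjusted p of 0.9998.

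Manba (chr3:135485611-135571404, plus strand), the beta-mannosidase, was at 364, 392, 280 and 601 normalized counts in controls. It was at 296, 275, 316 and 308 in knockouts, all below 3 of the 4 controls. Control 4 stood high and control 3 lay within the knockout range. The log2 fold change was -0.46 (SE 0.22, DESeq2 unadjusted p = 0.0324, BH-adjusted p = 0.9998), and without control 4 it was -0.23. The other 9 lay between -0.22 and 0.05. Hexa, the alpha subunit of hexosaminidase, was at -0.01, the acid alpha-glucosidase Gaa at -0.06 and the beta-glucuronidase Gusb at 0.05, and the rest were Gla, Galns, Sgsh, Idua, Ids and Man2b1. Idua and Sgsh share exon bases with Dgkq and Card14 on the opposite strand, each with more reads than the member itself, so their values are uncertain: whether strand was used in the counting is not given in the sources used here. Hexa, Npc1, Ctsb, Ctsz, Lamp1 and Atp6v1h also share exon bases with an opposite-strand gene, which held fewer reads than they did. Ctsl shares 1742 exon bases with Gm47123 on the opposite strand and Ctsd 808 with Gm49369 on the same strand, and both of these genes had 0 reads.

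The 6 lipid enzymes and lipid transfer proteins had 4 positive and 2 negative log2 fold changes, with a median of 0.07. Asah1 (chr8:41340197-41374773, minus strand), acid ceramidase, was at 405, 449, 498 and 471 normalized counts in controls and at 512, 519, 615 and 630 in knockouts. Every knockout lay above every control, though knockout 1 and control 3 were close. The log2 fold change was 0.32 (SE 0.12), with a DESeq2 unadjusted p of 0.0110 and a BH-adjusted p of 0.9998.

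Smpd1, acid sphingomyelinase, the step before acid ceramidase in sphingomyelin breakdown, was at 53.3, 43.8, 56.5 and 38.7 normalized counts in controls and at 60.0, 52.1, 60.1 and 71.4 in knockouts. Its ranges overlapped, and the log2 fold change of 0.34 (SE 0.24) had a 95% interval of -0.13 to 0.82. Psap, the precursor of the saposin cofactors, had a log2 fold change of 0.09 and Npc2, which hands cholesterol to NPC1, 0.05. Lipa, lysosomal acid lipase, was at 1322 normalized counts in control 3, 2057 to 2230 in the other 3 controls and 1675 to 1862 in knockouts. Its log2 fold change was -0.13, but -0.27 without control 3 and -0.34 in the 5 libraries above 10000000 counts, with DESeq2 BH-adjusted p of 0.2340 and 0.1051. Npc1, the cholesterol exporter, had the widest spread within genotype of the 32 members (34.4% of its mean), from 635 to 1207 normalized counts in controls and 555 to 1235 in knockouts, at a log2 fold change of -0.03. Its direction turned with the libraries used: it was 0.55 in the 5 deeper libraries (DESeq2 BH-adjusted p = 0.3285) and 0.21 without control 3.

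The 5 proteases had log2 fold changes between -0.08 and 0.03. Ctsb, a cysteine protease and the most abundant of them by count, was at 4343 to 5745 normalized counts in controls and 4582 to 5256 in knockouts (log2 fold change 0.00, 95% interval -0.22 to 0.22). The aspartic protease Ctsd, Ctsl, Ctsz and Tpp1 completed the group.

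Besides Tfeb, the 6 membrane and proton pump members lay between -0.06 and 0.13. Lamp2, which also serves chaperone-mediated autophagy, was at 1520, 1639, 1608 and 1668 normalized counts in controls and at 1783, 1688, 1824 and 1741 in knockouts. Its genotypes did not overlap, at a log2 fold change of 0.13 (SE 0.08, DESeq2 unadjusted p = 0.0912), and it had the smallest spread within genotype of the 32 members (3.64% of its mean). Lamp1, its close relative, was at 4837 to 6068 in controls and 4765 to 5616 in knockouts, a log2 fold change of -0.01. Scarb2, the receptor that carries beta-glucocerebrosidase, was at 0.02, the calcium channel Mcoln1 at -0.06, and the pump subunits Atp6v1h and Atp6v0d1 at 0.09 and 0.05.

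**Figure D3:**
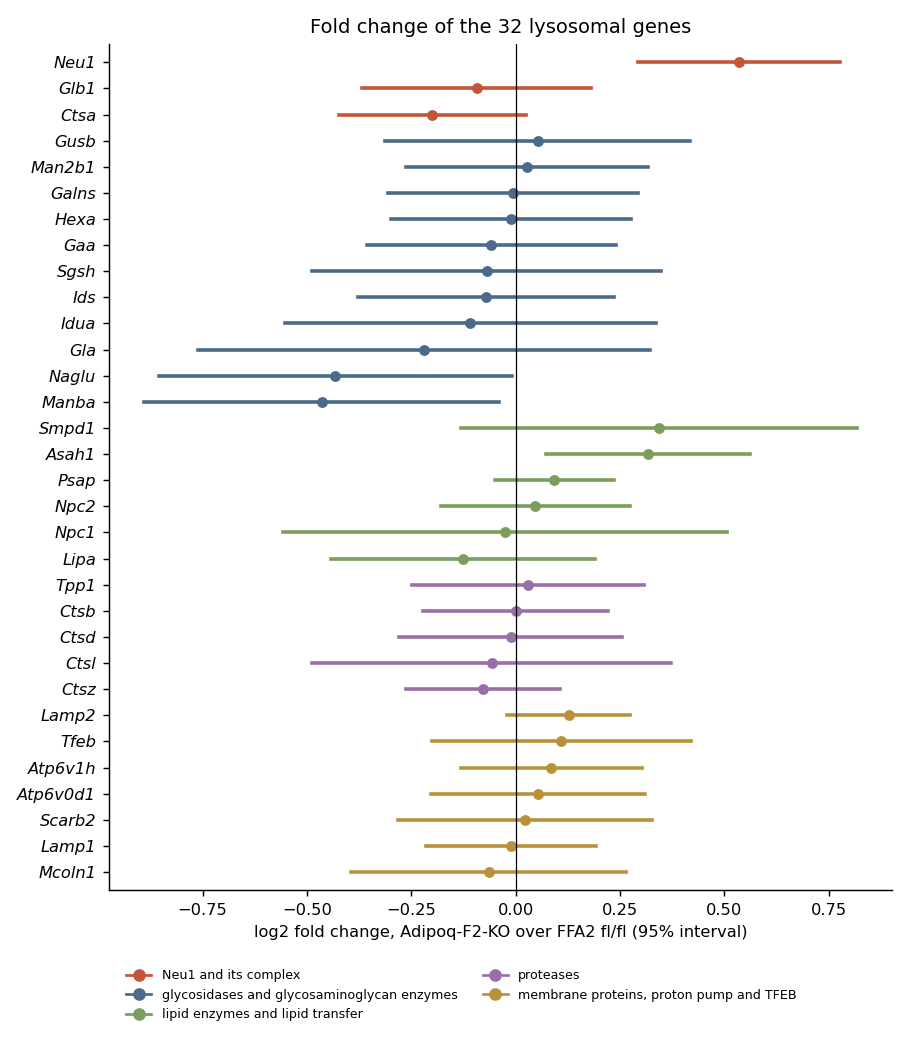
DESeq2 log2 fold changes (points) with 95% intervals (lines) of the 32 members, coloured by role. Among the 31 members other than Neu1, the intervals of Asah1, Naglu and Manba left out 0. Neu1 stood at 0.54, and 27 of the 32 points lay within 0.25 of 0.

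Over the 32 members, 14 log2 fold changes were positive and 18 negative, and the median was -0.01, the same as over the 15986 genes tested (-0.01). All 32 passed the filter of 10 counts in at least 4 libraries. A log2 fold change within 0.25 of 0 was found for 27 members (84.4%), beside 84.6% of the 9944 tested genes in the members' range of counts and 73.0% of all tested genes. At a DESeq2 BH-adjusted p below 0.05 there were 6 genes in all (0.0375% of those tested) and none of the 31 members other than Neu1. With edgeR there were 2 genes in all (0.0125%) and again none of the 31. Neu1 is left out of the members here, since its higher counts in this comparison chose it, but not of the counts over all genes.

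At an unadjusted DESeq2 p below 0.05 there were 3 of the other 31 members (9.68%), beside 3.03% of all tested genes. One of them, Asah1, was higher in knockouts, where 1.65% of all tested genes were, and Naglu and Manba were lower, where 1.38% were. With edgeR the same 3 genes had an unadjusted p below 0.05, beside 3.48% of all tested genes. In the 5 libraries above 10000000 counts the DESeq2 count was 4 (Ctsa, Manba, Lipa and Npc1), beside 5.40% of all tested genes, and Asah1 (0.22) and Naglu (-0.35) were not among them. With 1 library left out, the DESeq2 unadjusted p of Asah1 rose above 0.05 without control 1 or knockout 4, and that of Manba without control 4 or knockout 1, 2 or 4. That of Naglu stayed below it only without control 4 and without knockout 4. The genotypes did not overlap for 2 of the 31, Asah1 and Lamp2, both higher in knockouts, beside 2.12% of all tested genes in either direction. The intervals of the 31 reached from -0.89 to 0.82 at their outer ends, and their SEs ran from 0.07 for Psap to 0.28 for Gla.

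**Figure D4:**
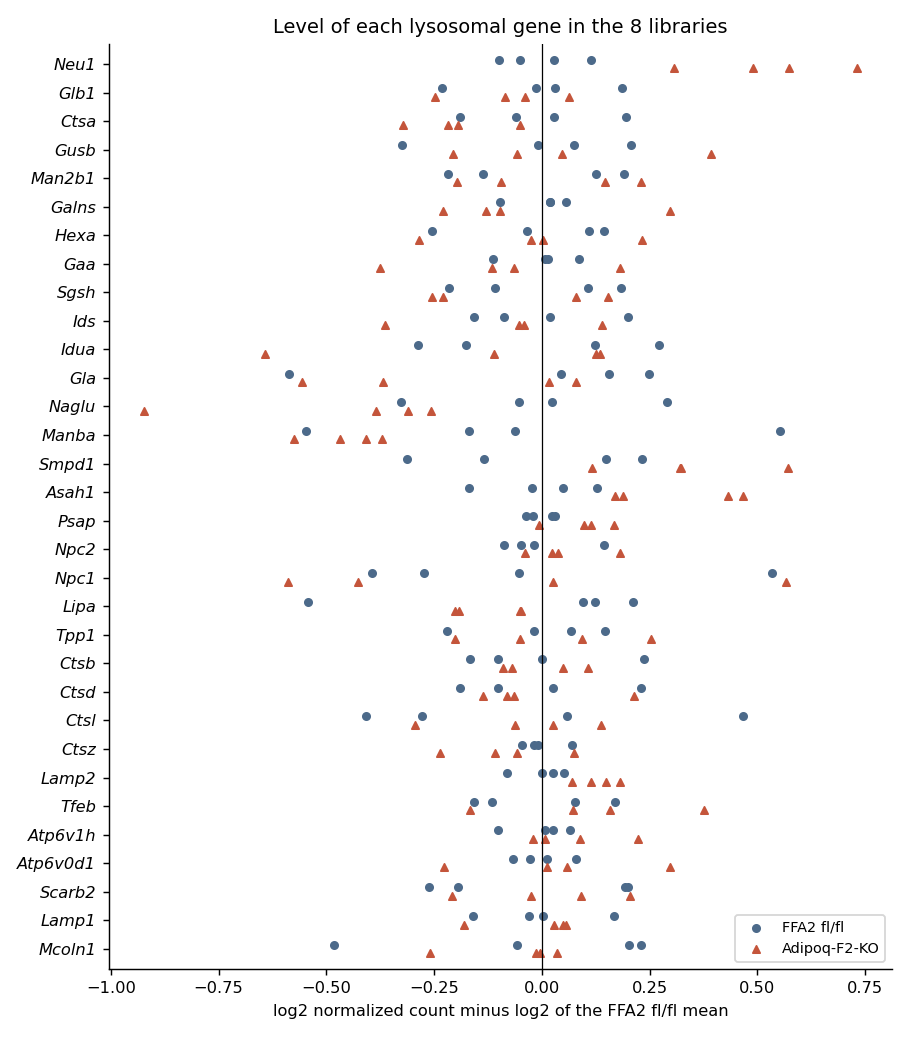
Level of each of the 32 members in 4 FFA2 fl/fl libraries (circles) and 4 Adipoq-F2-KO libraries (triangles), as log2 normalized count minus the log2 of the control mean. The triangles of Neu1, Asah1 and Lamp2 lie to the right of every circle of the same gene, and those of the other 29 mix with the circles.

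Levels of different members were compared as normalized counts per kilobase of merged exons. Lamp1 stood first at 2014, followed by Ctsz, a carboxypeptidase, at 1399 and Psap at 886. At the low end were Gla, alpha-galactosidase A, at 15.4, Smpd1 at 16.3 and Sgsh, heparan N-sulfatase, at 17.3, and the ranges of these 3 over the 8 libraries overlapped. Neu1 ranked 12th of 32 at 131, below Ctsa (308) and above Glb1 (87.5) and Tfeb (36.9). In controls Neu1 was at 107 ± 6.97 per kilobase, beside Scarb2 at 109 ± 18.5 and Galns at 101 ± 4.58. In knockouts it was at 155 ± 18.9, beside Asah1 at 168 ± 18.3 (SD, n = 4 each).

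**Figure D5:**
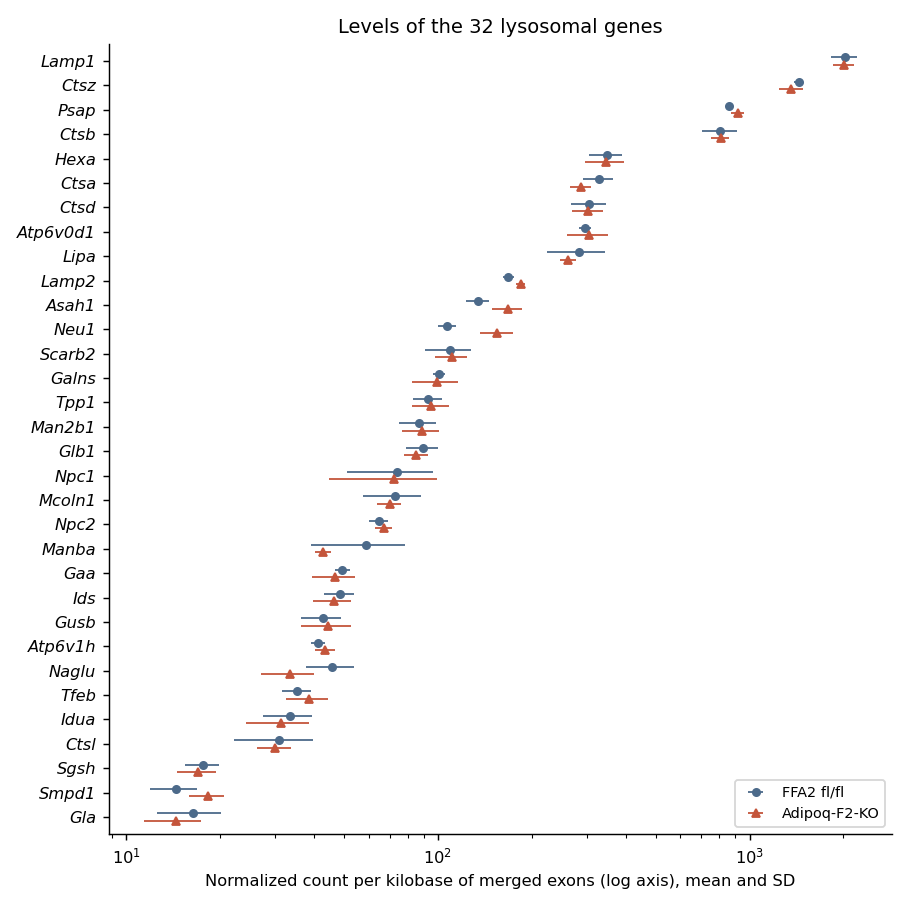
Mean normalized count per kilobase of merged exons on a log axis for each member in 4 FFA2 fl/fl (circles) and 4 Adipoq-F2-KO (triangles) libraries, with SD (lines). Levels ran from 15.4 for Gla to 2014 for Lamp1, with Neu1 12th of 32.

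A further 96 genes of lysosome biology were listed by role, of which 93 were tested. Of these, 38 had positive and 55 negative log2 fold changes, and the median was -0.03. An unadjusted DESeq2 p below 0.05 was found for 2 of the 93 (2.15%, beside 3.03% of all tested genes), and none passed BH adjustment. Gm2a, the GM2 activator protein that presents gangliosides to hexosaminidase, was at 82.4, 125, 109 and 73.5 normalized counts in controls and at 115, 154, 136 and 169 in knockouts. Its log2 fold change was 0.56 (SE 0.23, DESeq2 unadjusted p = 0.0147, BH-adjusted p = 0.9998), and 3 of the 4 knockouts lay above every control. The unadjusted p of Gm2a was above 0.05 in 5 of the 14 alternatives, namely in the 5 deeper libraries and without control 1, control 4, knockout 2 or knockout 4. Naaa, an acid amidase that hydrolyses N-acylethanolamines, was at 488, 458, 353 and 528 in controls and at 364, 364, 308 and 367 in knockouts. Its log2 fold change was -0.39 (SE 0.15, DESeq2 unadjusted p = 0.00828, BH-adjusted p = 0.9998), with control 3 inside the knockout range.

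By role, 27 further hydrolases had a median of 0.04, 17 membrane proteins and transporters of -0.05, 9 sorting genes of -0.03 and 14 genes of the TFE factors and autophagy of 0.04. The 12 tested genes of sialidases other than Neu1 and of sialic acid metabolism had 3 positive and 9 negative values, with a median of -0.05. The 14 further proton pump genes lay between -0.10 and 0.10, with 3 positive and 11 negative. Among the sialidases only Neu1 was abundant, at 131 normalized counts per kilobase beside 4.47 for Neu2 and 4.81 for Neu3. Neu2, a cytosolic sialidase, was at 13.6 ± 2.39 normalized counts in controls and 9.61 ± 3.43 in knockouts (SD, n = 4 each), with overlapping genotypes and a log2 fold change of -0.53 (SE 0.48). Neu3, a plasma membrane sialidase, was at 16.5 ± 6.01 and 15.6 ± 4.31, and Neu4 had at most 1 read in a library, under the floor of 3 reads.

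Marker lists of other cell types were read beside these results, and no gene of the immune lists passed BH adjustment with DESeq2. All 9 MHC class II genes had positive log2 fold changes (median 0.76). Their summed normalized counts were 4472 to 23870 in controls and 16560 to 33160 in knockouts, so the genotypes overlapped. The 4472 was control 1, beside 15170 to 23870 in the other 3 controls, and part of the difference rested on it. Of the 14 macrophage genes 12 were tested, 9 positive and 3 negative with a median of 0.41. Lyz2 among them was at 43.6, 122, 107 and 38.7 in controls and at 91.6, 162, 166 and 179 in knockouts. The 14 macrophage genes summed to 1823 to 2299 in controls and 1638 to 2275 in knockouts, and none of them was at 0 throughout. The 6 tested B and plasma cell genes were all positive (median 0.91), with Mzb1 at no more than 3 reads in every library. Of 10 T and intraepithelial lymphocyte genes 8 were positive (median 0.21), with Cd4, the helper T cell co-receptor, at 1.10 (DESeq2 unadjusted p = 0.00367, BH-adjusted p = 0.9764). Of 9 tested crypt and proliferation genes 6 were positive (median 0.19), and the proliferation genes Mki67 and Top2a were at 0.35 and 0.33 (DESeq2 unadjusted p = 0.0198 and 0.0164, BH-adjusted p = 0.9998 each), each with 3 of 4 knockouts above every control. Other proliferation genes of that list were Cdk1 at 0.36 (SE 0.23), Birc5 at 0.19, Ccnb1 at 0.10 (SE 0.47), Pcna at -0.08 and Mcm2 at -0.12. All 9 smooth muscle genes had negative log2 fold changes (median -0.92), which rested on control 3. Their summed normalized counts were 29820 there, 3686 to 8123 in the other 3 controls and 4029 to 12290 in knockouts. Villus enterocyte genes had a median of -0.02. With the smooth muscle level in the model, Neu1 was at 0.53 and Asah1 at 0.30. In the 5 libraries above 10000000 counts, Neu1 was at 0.54 and Asah1 at 0.22 (DESeq2 BH-adjusted p = 0.8905). The part of the immune and proliferating cells in the Neu1, Asah1 and Gm2a values was not tested.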

How the data were processed

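Jejunal mucosa RNA of 8 mice was sequenced by the study (poly-A, stranded kit, single-end 75 bp reads). The authors trimmed reads with Trimmomatic, aligned them with STAR and counted them per gene with featureCounts, and the deposited values are raw counts, one file per library, neither normalized nor pooled. The labels name GRCm38 and mm10, while versions, annotation release and strand setting are not given in the sources used here. Symbols, coordinates and exon lengths came from GENCODE M21 (GRCm38), which held 52125 of the 56980 identifiers, and promoters from RefSeq (GRCm38.p6).

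A gene was tested if 4 or more libraries held 10 or more of its reads, which left 15986 genes. DESeq2 1.42.0 in R 4.3.3 was fitted to all of them with genotype as the only term (two-sided Wald test, Benjamini-Hochberg (BH) adjustment). The fitting steps were tested on simulated data. edgeR 4.0.16, TMM factors, no count filter, a replicate block, a smooth muscle covariate, deep libraries only and leaving out each library were the alternatives. Intervals are 95%, and those and the floor of 3 reads cover counting error and the spread between these 8 mice only.

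The members and lists were chosen with earlier results of these data known. Genes named individually were Neu1, its partners, Tfeb, Smpd1 (next to Neu1 among increases), members at an unadjusted p below 0.05, the 3 highest and lowest per kilobase, the sialidases, Neu1's neighbours and up to 3 other lysosomal genes a direction with the smallest unadjusted p below 0.05. Members named beyond these (Lamp2, Psap, Npc1 and others with values) and the split by TCACGTG were chosen after their values were seen. The 12 pairs of libraries within a genotype differed by a chi-square of 5.04 to 56.6 per gene, more than sampling noise. Pairs across genotypes were not compared.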

Additional observations from a re-analysis of the deposited data

Results flagged for a closer look

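Among 68 groups of 4 libraries (the 32 members, Gm2a and Naaa in each genotype), 2 had 1 library far from the rest by Dixon's ratio, the gap to the nearest library divided by the range. Chance gives about 1 in 20. Lamp1 in Adipoq-F2-KO replicate 2 was at 4765 normalized counts, beside 5512 to 5616 in the other 3 knockouts, with a ratio of 0.879. Naaa in Adipoq-F2-KO replicate 3 was at 308 normalized counts, beside 364 to 367, with a ratio of 0.954.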

How the results depend on the processing

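The log2 fold change of Neu1 was 0.47 to 0.60 over the 14 alternatives, given as a description because the same values chose the gene. No member other than Neu1 was called in any of the 14. The count of called members with Neu1 included reflects only Neu1, since no other member was called. The same values chose Neu1, so nothing is read from this count. It was 1 with DESeq2 and 0 with edgeR, with no count filter, with the smooth muscle covariate and with the replicate block. Without each library in turn it was 0 to 1, and it was 1 only without control 3 and without knockout 3. The count of other members at an unadjusted p below 0.05 was 3, 1 with the replicate block (Asah1) and 4 with deep libraries only (Ctsa, Manba, Lipa and Npc1). Without each library in turn it was 1 to 4. Of other lysosomal genes 2 had such a p, and 1 to 7 without each library in turn, with 7 without control 3 and 4 without control 2. Over all tested genes the share at such a p was 3.03%, and 1.76 to 8.14% without each library in turn, highest without control 3, where the 4 other members and 7 other lysosomal genes also stood. Naaa passed BH adjustment (DESeq2 adjusted p = 0.0281) without control 3, at a log2 fold change of -0.48. The members' median stayed between -0.04 and 0.03. Asah1 ranged from 0.22 to 0.37, Naglu from -0.53 to -0.31, Manba from -0.67 to -0.23, Ctsa from -0.33 to -0.13 and Lipa from -0.34 to -0.05. Npc1 was -0.03 and turned to 0.55 with deep libraries only. Without each library in turn it was -0.29 to 0.21, with 0.21 without control 3, 0.12 without knockout 3 and 0.08 without knockout 4. Over all genes 6 were called by DESeq2, 2 with edgeR, 3 of 32652 with no count filter, 11 with the replicate block, 78 with deep libraries only and 2 to 103 without each library in turn, the most without control 3. Same-numbered libraries correlated at 0.54, 0.29, 0.01 and -0.42 in their deviations from the genotype means, so the numbers were not taken as pairs. The 3 libraries under 10000000 counts gave the sparse members (Gla, Smpd1, Sgsh) 17 to 46 raw reads.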

Other observations

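Of 93 other lysosomal genes tested, 2 had genotypes that did not overlap, beside 2.12% of all tested genes. They were Uvrag, an autophagy gene, and Gnptg, a subunit of the enzyme that makes the mannose 6-phosphate sorting tag. Uvrag was at 173 ± 3.83 normalized counts in controls and 186 ± 5.46 in knockouts (log2 fold change 0.09). Gnptg was at 141 ± 16.7 in controls and 115 ± 4.71 in knockouts (SD, n = 4 each, log2 fold change -0.29). Slc17a5, which exports free sialic acid from lysosomes, was at 216 ± 49.4 and 260 ± 22.6, with overlapping genotypes and a log2 fold change of 0.29. These 3 genes were chosen after their values were seen.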
